A study of Mus musculus with 6 samples.

Results

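Fibronectin, periostin and 8 matricellular proteins (10 genes of the 31053 counted) were followed through single-cell libraries from infarcted heart and infarcted brain of mice. The genes were chosen with earlier results of these data known. They were taken by symbol as a list, namely *Fn1*, *Postn*, *Tnc*, *Thbs1*, *Thbs2*, *Thbs4*, *Comp*, *Cilp*, *Sparc* and *Spp1*, and all 10 were present in every count table. For each of them the cell class that held most of its transcripts was named in each injured organ.

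All mice carried Tbx18CreER/+;Rosa26tdT/+, so that tamoxifen marks cells that express the transcription factor Tbx18 at that time, and their descendants, with the red fluorescent protein tdT. Tamoxifen was given intraperitoneally on 4 days and washed out for a week. The groups were the infarct and the peri-infarct area of hearts after LAD ligation (tying the left anterior descending coronary artery), the infarct core and the peri-infarct area of brains after photothrombosis (PT stroke, in which illumination of a photosensitive dye clots cortical vessels), and sham-operated heart ventricles and brain. Heart tissue without atria and cortical tissue were digested, and cells were sorted for tdT, so cells outside the Tbx18 lineage are present only as far as the sort let them through. Each group is 1 library (10x Genomics 3' version 3), and the labels state no time after injury and no number of animals, so no difference between groups has a replicate check. Intervals below are 95% and cover counting error only. Ratios are those of (CPM + 1), CPM being defined below, and their intervals are those of the plain CPM ratio.

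Cells were classed by marker genes that each cell expressed, and a class name ending in "-like" refers to those transcripts. After filtering, 7989 heart infarct, 7289 heart peri-infarct and 11541 heart sham cells remained, and 2031 brain infarct, 2291 brain peri-infarct and 2586 brain sham cells. The median number of UMIs (unique molecular identifiers, counted transcripts) per cell was 10479 in heart infarct and 8568 in peri-infarct, against 1376 in heart sham, the shallowest library, in which 29.9% of cells lay between classes. Brain infarct was the deepest, with a median of 25916 UMIs against 2912 in brain peri-infarct and 3331 in brain sham. Pairs of libraries shared 24 to 204 cell barcodes, or 0.72% to 7.88% of the barcodes of the smaller library. The most were shared by heart peri-infarct and brain peri-infarct. The part of this overlap in low counts was not tested. Levels are UMIs per 1000000 UMIs of the class (CPM). They are compared between classes and libraries for 1 gene at a time, since they were not scaled for transcript length.

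The fibroblast-like class held 5081 heart infarct, 4431 heart peri-infarct and 4821 heart sham cells, and 585 brain infarct, 152 brain peri-infarct and 189 brain sham cells. Fibroblast markers that the gate did not use (*Serping1*, *Ogn*, *Clec3b*, *Mfap5*, *Scara5* and *Pcolce*) summed to 5270.5 CPM in heart infarct, 5805 in heart peri-infarct and 4097 in heart sham fibroblast-like cells, and all 6 were detected. In brain infarct the same sum was 1054 CPM, against 2218 in brain peri-infarct and 2448 in brain sham. Mural markers outside the gate summed to 1229 CPM in brain infarct fibroblast-like cells, more than their fibroblast markers, against 249 in brain peri-infarct and 165 in brain sham. In heart the smooth muscle ones among them summed to 1064 CPM in infarct, 574 in peri-infarct and 2649 in sham fibroblast-like cells. Their part in the results on fibroblast-like cells was not tested.

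The cells called arachnoid-gated here fit their name only in part. Of their 3 check markers *Cldn11* stood at 254 CPM in brain peri-infarct, against 209 in the fibroblast-like cells of that library, whereas *Aldh1a2* and *Dpp4* were lower than in fibroblast-like cells. A further 674 brain infarct cells, 33.2% of that library, reached no class. They were led by *Acta2*, *Tagln*, *Aldh1a3* and *Fabp4* together with cell cycle genes, and their fibroblast check markers summed to 633 CPM.

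Fibronectin is a secreted glycoprotein that cells assemble into fibrils, and these form a provisional matrix in wounds to which cells attach through integrins. Matricellular proteins are secreted into the matrix without being its main structural fibres, and they modulate adhesion, collagen assembly and growth factor activity. Many are low in resting adult tissue and become abundant during repair, periostin and osteopontin being well-known examples in the infarcted heart.

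Promoter sequences of 6 members (*Postn*, *Tnc*, *Thbs2*, *Thbs4*, *Cilp* and *Spp1*) could be matched in RefSeq for GRCm38.p6. Those of *Postn*, *Spp1* and *Cilp* are printed, each as the 140 bases before the annotated start, because the injured level lay on opposite sides of sham in the heart and the brain (*Postn*), because the gene was shared between fibroblast-like and macrophage-like cells (*Spp1*), or because it lay almost wholly in the fibroblast-like class of injured heart (*Cilp*). They run 5′ to 3′ on the gene's strand, at chr3:54360967-54361106, chr5:104434971-104435110 and chr9:65265040-65265179, all on the plus strand.
Postn: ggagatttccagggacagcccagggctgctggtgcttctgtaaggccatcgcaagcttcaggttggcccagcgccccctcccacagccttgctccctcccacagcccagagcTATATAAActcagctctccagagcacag
Spp1: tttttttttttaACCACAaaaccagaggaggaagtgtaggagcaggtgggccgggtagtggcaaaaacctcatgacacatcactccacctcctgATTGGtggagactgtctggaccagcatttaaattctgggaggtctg
Cilp: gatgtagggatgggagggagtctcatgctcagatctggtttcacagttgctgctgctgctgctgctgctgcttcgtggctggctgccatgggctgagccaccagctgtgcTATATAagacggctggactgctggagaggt
Capitals mark matches to TATANA (the TATA box), which began 28 and 26 bases before the start in *Postn* and 30 bases before it in *Cilp*. At 28 bases in *Postn* and at 30 in *Cilp* both strands match. In *Spp1* they mark ACCACA, a core of RUNX factor sites, 128 bases before the start, and CCAAT on the opposite strand, 46 bases before it. Within 250 bases and on either strand, 22.6% of 32851 promoters held TATANA, 33.8% held CCAAT and 14.05% held ACCACA. A match to TATANA on the gene's own strand between 40 and 21 bases before the start, as in *Postn* and *Cilp*, occurred in 2.79%. TGANTCA, the AP-1 motif, occurred in 6.75% and in none of these 6 windows. A match describes letters only.

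In heart infarct the fibroblast-like class was the main source of all 10 members. This class held 70.4% of the library's UMIs and was also the main source of 98.1% of the 3029 genes at 50 CPM or more, so the count of 10 is near that of any gene, and the size of the share is the more telling value. Its share was 96.1% for *Cilp* and for *Comp*, 91.7% for *Thbs4*, 91.0% for *Postn* (90.9 to 91.1) and 87.8% for *Thbs2*. *Sparc* at 82.4%, *Tnc* at 78.3%, *Fn1* at 77.4% and *Thbs1* at 74.2% lay closer to the share of all UMIs. *Spp1*, which encodes osteopontin, was the exception, with 44.8% (43.4 to 46.2) in fibroblast-like and 38.4% in macrophage-like cells.

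In heart peri-infarct fibroblast-like cells, with 66.9% of UMIs, were the main source of 9 members, against 95.3% of 3216 genes. They held 99.3% of *Comp*, 99.1% of *Cilp*, 95.7% of *Thbs4*, 94.7% of *Postn*, 88.0% of *Tnc*, 86.7% of *Thbs1* and 86.4% of *Thbs2*. *Sparc* at 76.1% and *Fn1* at 71.5% were again nearest the share of all UMIs. The main source of *Spp1* here was the macrophage-like class, which made up 1.63% of cells and 1.80% of UMIs and held 57.2% (54.9 to 59.6) of the gene's UMIs, against 36.5% in fibroblast-like cells. In heart sham the fibroblast-like class was the main source of 9 members, against 91.8% of 3017 genes, and the mural-like class that of *Spp1*.

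In brain infarct the fibroblast-like class was again the main source of all 10 members among the gated classes, and of 97.8% of 2771 genes. Cells that reached no class or lay between classes held more of most members than any gated class did. For *Fn1* the fibroblast-like share was 35.2% and the ungated share 62.0%, while the class held 33.7% of all UMIs. *Postn* was concentrated in fibroblast-like cells at 63.7% (61.8 to 65.6), with 32.2% in ungated cells. *Sparc* (39.7%), *Thbs2* (33.6%), *Tnc* (28.9%) and *Thbs1* (27.1%) lay near the share of all UMIs, and a further 9.40% of *Thbs1* was in macrophage-like cells. *Spp1* was divided between fibroblast-like (40.8%), macrophage-like (16.6%) and ungated cells (42.5%). *Thbs4*, *Comp* and *Cilp* were close to absent from this library, with 20, 5 and 1 UMIs in all, so their source there rests on next to nothing.

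In brain peri-infarct the sources were spread over 3 classes. Fibroblast-like cells, 6.63% of cells and 9.38% of UMIs, were the main source of *Postn* (62.5%, 52.9 to 71.5) and *Spp1* (38.2%, 34.9 to 41.6), and of only 1.22% of 3515 genes. Arachnoid-gated cells, with 25.4% of UMIs and the main source of 44.1% of genes, led for *Fn1* (38.1%), *Thbs1* (45.2%), *Thbs2* (34.7%) and *Cilp*, the last with 1 UMI. Mural-like cells (pericyte-like and smooth-muscle-like together) held 26.2% of UMIs and were the main source of 51.4% of genes. They led for *Sparc* with 22.4%, ahead of arachnoid-gated cells at 17.9%, and for *Comp* with 6 of 11 UMIs. The *Sparc* level was 1024 CPM in mural-like cells, against 2185 in fibroblast-like cells. *Tnc* had 2 UMIs in the library, none in a gated class, and *Thbs4* had none. With cells classed by clusters the leading class became fibroblast-like for *Thbs2* and mural-like for *Thbs1*, and in brain infarct macrophage-like for *Thbs1*. With a lower gate score of 0.1, chosen after the data were seen, *Sparc* and *Thbs2* of brain peri-infarct were led by fibroblast-like cells. In brain sham the leading classes were the same for *Postn*, *Fn1*, *Thbs1*, *Thbs2*, *Sparc* and *Comp*, while *Spp1* was led by arachnoid-gated cells.

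**Figure D1:**
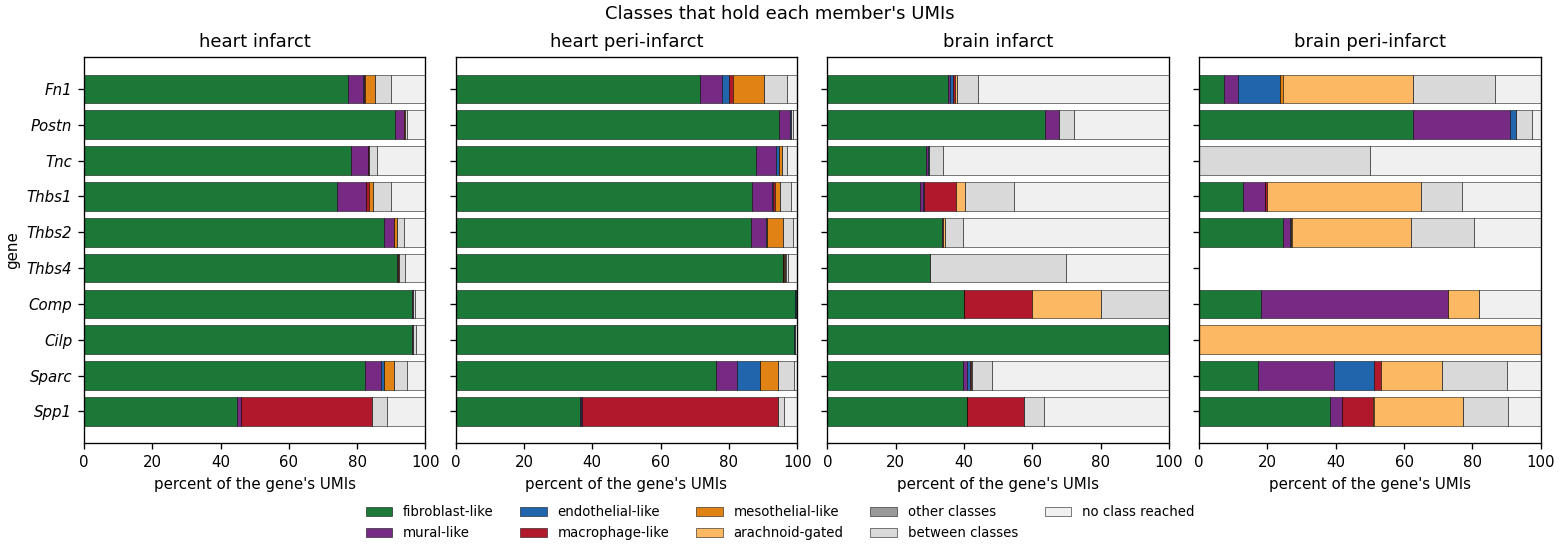
Share of each gene's UMIs (x axis, percent) held by each cell class in the 4 injured libraries, 1 bar per gene, with cells between classes and cells that reached no class in grey. Fibroblast-like cells (green) hold most of every gene but *Spp1* in both heart panels, ungated cells hold much of the brain infarct panel, and in brain several bars rest on few UMIs (*Thbs4* 20, *Comp* 5 and *Cilp* 1 in infarct; *Tnc* 2, *Comp* 11 and *Cilp* 1 in peri-infarct).

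*Fn1* (chr1:71585520-71653200, minus strand, mm10), the gene of fibronectin, stood at 2309 CPM in heart infarct and 660.4 in peri-infarct fibroblast-like cells, against 106 in heart sham. In brain the fibroblast-like level was 1519 CPM in infarct and 375 in peri-infarct, against 60.4 in sham. Both organs thus had the same order, infarct above peri-infarct above sham. The ratio to sham was 21.6-fold in heart infarct (20.4 to 23.3), 6.18-fold in heart peri-infarct, 24.8-fold in brain infarct (19.5 to 33.1) and 6.12-fold in brain peri-infarct (4.70 to 8.30). The last of these had the opposite sign when cells were classed by clusters, with a log2 ratio of -1.83 in place of 2.61, and lay between 1.63 and 3.12 under the other alternatives. It rests on few cells, since the richest 10% of the 152 brain peri-infarct fibroblast-like cells held 81.8% of the 385 *Fn1* UMIs and the median cell had 0 CPM.

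*Fn1* was not confined to fibroblast-like cells. In heart infarct the order of classes was cells without a class at 3074 CPM, fibroblast-like, mesothelial-like at 1642, pericyte-like at 889 and smooth-muscle-like at 790, followed by macrophage-like at 272 and endothelial-like at 262, whose intervals overlapped. Mesothelial-like cells, which carry markers of the heart's outer lining, had 1642 CPM in infarct and 1106 in peri-infarct, against 40.3 in sham, a 39.8-fold ratio for infarct with a wide interval (22.2 to 85.1) because sham gave only 10 UMIs. In heart peri-infarct they were above fibroblast-like and pericyte-like cells, which had 660.4 and 665 CPM with overlapping intervals. Pericyte-like cells had 889 CPM in heart infarct and 665 in peri-infarct, against 119 in heart sham. Smooth-muscle-like cells had 790 and 211 CPM in the same injured libraries, against 107 in sham.

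In brain infarct the cells without a class had 1588 CPM of *Fn1*, fibroblast-like cells 1519, endothelial-like cells 935, pericyte-like cells 389 and macrophage-like cells 196. Endothelial-like cells, which line vessels, had 935 CPM in brain infarct and 674 in peri-infarct, against 531 in brain sham. Arachnoid-gated cells had 730 CPM in peri-infarct, against 811 in sham, so that in sham both classes were above the fibroblast-like level. Brain pericyte-like cells had 389 CPM in infarct, against 78.5 in sham, a 4.90-fold ratio (4.30 to 5.72), and 98.6 in peri-infarct, 1.25-fold of sham (1.05 to 1.497).

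**Figure D2:**
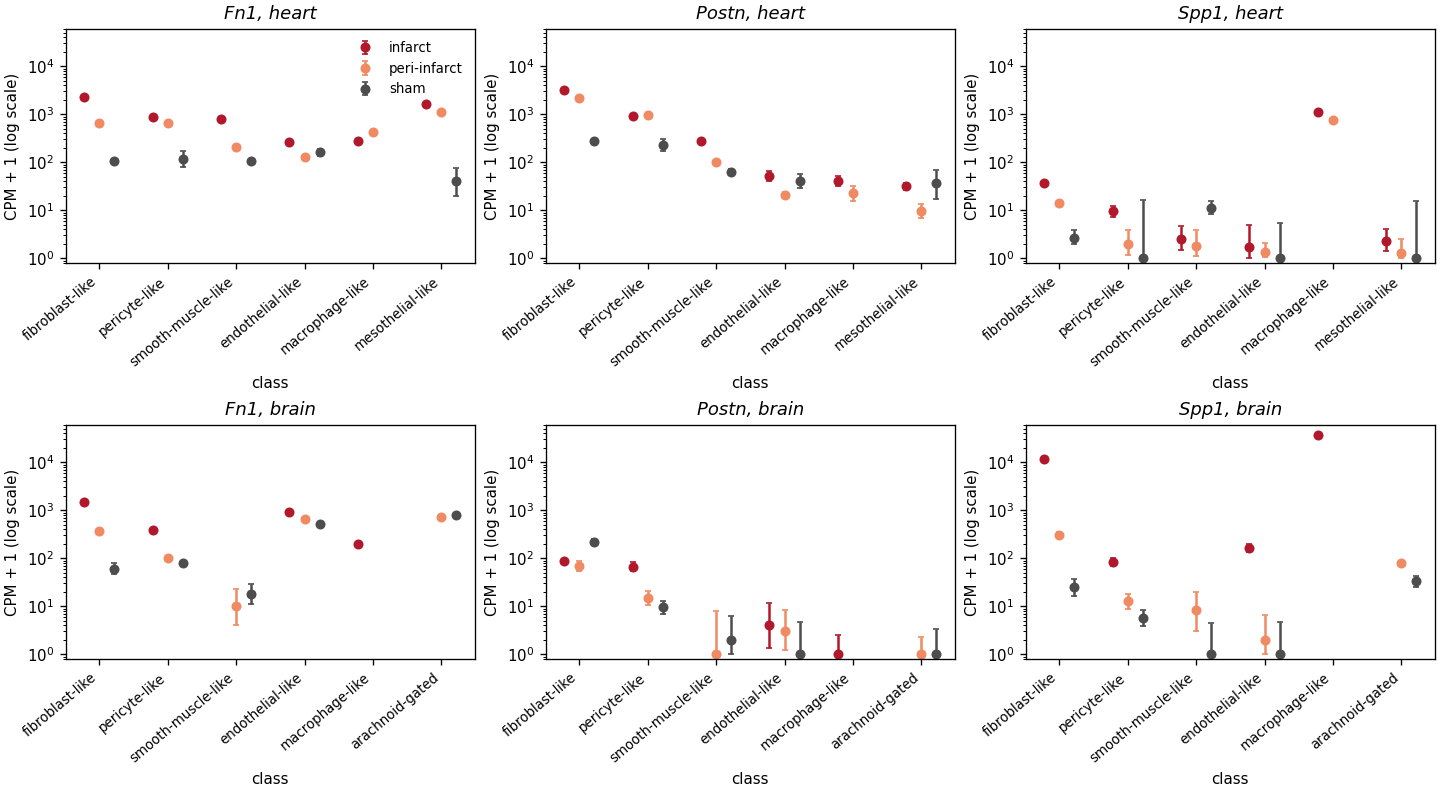
Level of *Fn1*, *Postn* and *Spp1* (y axis, CPM + 1, log scale) by class in heart (top) and brain (bottom), with infarct, peri-infarct and sham libraries as separate points and bars for the 95% counting interval. Points are missing where a library had fewer than 50 cells of a class. *Fn1* is highest in infarct in most classes, *Postn* in brain fibroblast-like cells is highest in sham, and *Spp1* is highest in macrophage-like cells of heart infarct, heart peri-infarct and brain infarct.

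*Postn* (chr3:54361109-54391037, plus strand) encodes periostin, which binds collagen and aids its crosslinking, and marks activated fibroblasts of the infarcted heart. Heart fibroblast-like cells had 3215 CPM in infarct and 2146 in peri-infarct, against 277 in sham, ratios of 11.6-fold (11.1 to 12.1) and 7.71-fold (7.43 to 8.06). Brain fibroblast-like cells went the other way, with 89.2 CPM in infarct and 68.1 in peri-infarct, against 217 in sham. The brain ratios were 0.414-fold (0.356 to 0.477) in infarct and 0.317-fold (0.236 to 0.413) in peri-infarct. The sum of fibroblast check markers was also lower in brain infarct than in brain sham fibroblast-like cells, but close to sham in brain peri-infarct (1054 and 2218 CPM, against 2448 in sham). Its part in the *Postn* ratio was not tested.

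Outside fibroblast-like cells *Postn* was also found in cells that reached no class and in mural-like cells. Cells without a class had 1879 CPM in heart infarct and 1501 in peri-infarct, against 183 in sham, and 25.8 CPM in brain infarct. Smooth-muscle-like cells of heart had 283 CPM in infarct and 99.7 in peri-infarct, against 63.0 in sham, a 4.44-fold ratio for infarct (3.86 to 5.26). Pericyte-like cells of heart had 906 CPM in infarct and 983 in peri-infarct, against 233 in sham. Those of brain had 66.4 CPM in infarct and 13.96 in peri-infarct, against 8.63 in sham, a 6.996-fold ratio for infarct (5.14 to 11.7), at a mean level below 50 CPM. In brain infarct the pericyte-like level was below that of fibroblast-like cells, with intervals apart (53.2 to 81.9 and 84.9 to 93.7 CPM). Fibroblast check markers in those pericyte-like cells were at 57.9% of their fibroblast-like level and *Postn* at 74.4%. Endothelial-like cells of brain infarct had 3.01 CPM of *Postn* (2 UMIs). Whether transcripts were carried over between the classes was not tested. In heart infarct the pericyte-like cells stood well apart from mesothelial-like (30.7 CPM), macrophage-like (40.4) and endothelial-like cells (50.7). *Postn* was at 0.955% of its fibroblast-like level in mesothelial-like cells of heart infarct, in which *Fn1* was at 71.1%. Arachnoid-gated cells had no *Postn* UMI in either brain library, which allows at most 1.32 CPM in peri-infarct.

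*Tnc* (chr4:63959785-64047015, minus strand), the gene of tenascin-C, a large anti-adhesive glycoprotein of wounds, was a low transcript largely limited to injured libraries. Heart fibroblast-like cells had 90.5 CPM in infarct and 49.97 in peri-infarct, against 2.41 in sham, where 21 UMIs were counted. The ratio of (CPM + 1) was 26.9-fold in infarct and 14.96-fold in peri-infarct, although its mean over infarct and sham was below 50 CPM. Heart cells without a class had higher levels, with 164.9 CPM in infarct and 94.3 in peri-infarct, against 7.14 in sham (5 UMIs). Heart smooth-muscle-like cells had 54.0 CPM in infarct and 36.0 in peri-infarct, against 1.54 in sham, and pericyte-like cells 23.9 and 14.1, against 4.24 in sham (1 UMI). In brain the gene was counted in infarct fibroblast-like cells (25.1 CPM) and in infarct cells without a class (38.0 CPM). Fibroblast-like cells of brain peri-infarct and brain sham had no UMI. The infarct level was 8.18-fold the level that 3 UMIs would give in sham. The lower limit of the ratio to sham was 6.62-fold.

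*Thbs1* (chr2:118111876-118127133, plus strand) and *Thbs2* (chr17:14665500-14694235, minus strand) encode the trimeric thrombospondins, which inhibit vessel growth, thrombospondin-1 also being an activator of latent TGF-beta. *Thbs1* was near sham in heart fibroblast-like cells, with 338 CPM in infarct and 315 in peri-infarct, against 283 in sham. It was higher in smooth-muscle-like cells of heart infarct (437 CPM) and sham (390), and about as high in those of peri-infarct (313). Pericyte-like cells differed, with 149 CPM in infarct and 74.3 in peri-infarct, against 42.4 in sham (10 UMIs), a 3.45-fold ratio for infarct (1.90 to 7.35). In macrophage-like cells of heart infarct *Thbs1* was at 121 CPM, 35.7% of its fibroblast-like level, whereas fibroblast check markers there were at 1.23%. Carry-over of *Thbs1* transcripts between these classes was not tested.

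In brain, fibroblast-like *Thbs1* was 30.6 CPM in infarct and 187 in peri-infarct, against 97.3 in sham. Infarct was thus 0.321-fold of sham (0.252 to 0.395) and peri-infarct 1.91-fold (1.49 to 2.48). The peri-infarct direction depended on how cells were classed and weighted, its log2 ratio being 0.93 as given, -0.90 with cells classed by clusters and -0.03 with cells thinned to 1000 UMIs. Smooth-muscle-like cells had 169.7 CPM in brain peri-infarct, against 84.8 in sham, a similar ratio of 1.99-fold (1.47 to 2.72). Arachnoid-gated cells had 241 CPM in peri-infarct, against 316 in sham, the highest *Thbs1* level of any gated brain class in both libraries. Macrophage-like cells of brain infarct had 80.0 CPM (69.0 to 92.3), above the fibroblast-like level.

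For *Thbs2*, heart fibroblast-like cells had 262 CPM in infarct and 123 in peri-infarct, against 84.7 in sham, and brain fibroblast-like cells 214 and 192, against 142 in sham. Of these ratios the one in heart infarct passed 2-fold (3.07-fold, 2.88 to 3.34). In brain infarct the log2 ratio was 0.58, but -0.27 with cells classed by clusters. Mesothelial-like cells of heart went the other way, with 53.8 CPM in infarct and 92.9 in peri-infarct, against 274 in sham, or 0.199-fold (0.149 to 0.263) and 0.342-fold (0.261 to 0.447). Within those cells *Fn1* and *Thbs2* therefore differed from sham in opposite directions.

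*Thbs4* (chr13:92751590-92794818, minus strand), *Comp* (chr8:70373558-70382066, plus strand) and *Cilp* (chr9:65265180-65280605, plus strand) are genes of tendon and cartilage matrix, the first pair encoding pentameric thrombospondins and the last cartilage intermediate layer protein. All 3 were heart transcripts. *Thbs4* in heart fibroblast-like cells was 158 CPM in infarct and 87.2 in peri-infarct, against 23.0 in sham. *Cilp* was 351 and 249.96 CPM, against 66.4 in sham. *Comp* was 368 CPM in infarct and 209 in peri-infarct, against 255 in sham, within 2-fold of it on both sides. Heart cells without a class had 107 CPM of *Thbs4* in infarct and 137 in peri-infarct, against 14.3 in sham.

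By share of UMIs these 3 genes were also the most concentrated in the fibroblast-like class of injured heart. In heart infarct pericyte-like cells they were at 0.815 CPM (*Thbs4*), 4.08 (*Comp*) and 3.87 (*Cilp*), and in heart peri-infarct the only other gated class with more than 10 CPM of any of them was cardiomyocyte-like, with 49.5 CPM of *Thbs4* (19 UMIs in 74 cells). Brain fibroblast-like cells had 6 UMIs of *Thbs4*, 2 of *Comp* and 1 of *Cilp* in infarct, and 3 of *Comp* and none of the other two in sham.

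*Sparc* (chr11:55394500-55423183, minus strand), also called osteonectin, encodes a collagen-binding protein needed for orderly collagen fibrils. It was present in most classes of both organs. Heart fibroblast-like cells had 12546 CPM in infarct and 7154 in peri-infarct, against 2273 in sham, 5.52-fold and 3.15-fold. In heart infarct the ratio was at least 2-fold in the other classes compared with sham too, from 2.01-fold in pericyte-like (5996 CPM, against 2984 in sham) to 4.46-fold in mesothelial-like cells (7677 CPM, against 1719). Endothelial-like cells had 4705 CPM in heart infarct and 4086 in peri-infarct, against 1186 in sham. In brain only infarct fibroblast-like cells passed 2-fold, with 4377 CPM, and 2185 in peri-infarct, against 1969.6 in sham. Brain endothelial-like cells had 2820 CPM in infarct and 1594 in peri-infarct, against 2115 in sham. Macrophage-like cells were low, at 206 CPM in heart infarct and 169.8 in brain infarct.

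*Spp1* (chr5:104435118-104441050, plus strand) encodes osteopontin, a cytokine-like phosphoprotein that binds integrins and CD44 and is a known product of macrophages in injured tissue. In heart its level was highest in macrophage-like cells, at 1110 CPM in infarct and 756 in peri-infarct, while heart sham had 1 such cell. Heart fibroblast-like cells had 35.5 CPM in infarct and 12.96 in peri-infarct, against 1.72 in sham. In both injured heart libraries all *Spp1* UMIs of fibroblast-like cells lay in the richest 10% of those cells. The 6 macrophage check markers were at 0.111% of their macrophage-like level in heart infarct fibroblast-like cells and *Spp1* at 3.20%. Carry-over of transcripts between the 2 classes was not tested. In brain infarct macrophage-like cells had 36546 CPM.

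Brain infarct also had high *Spp1* outside macrophage-like cells. Fibroblast-like cells had 11928 CPM in brain infarct and 309 in peri-infarct, against 24.6 in brain sham, ratios of 467-fold (326 to 758) and 12.1-fold (8.31 to 19.9). Cells without a class had 7069 CPM in the same infarct library. Macrophage check markers summed to 14.2 CPM in brain infarct fibroblast-like cells against 8569 in macrophage-like cells, 0.166% of that level, whereas *Spp1* stood at 32.6% of it. Endothelial-like and pericyte-like cells of brain infarct had 163 and 82.4 CPM, 0.445% and 0.226% of the macrophage-like level, with macrophage check markers at 0.493% and 0.454%. Whether *Spp1* transcripts were carried over between these classes was not tested. After thinning each cell to 1000 UMIs, 64.3% of brain infarct and 23.0% of peri-infarct fibroblast-like cells had an *Spp1* UMI, against 1.55% in sham (91.6%, 39.5% and 3.70% unthinned). In endothelial-like cells of the same 3 libraries the thinned shares were 4.07%, 0.0311% and 0%, median depths being 29940, 4124.5 and 4792 UMIs in fibroblast-like and 3934, 2911 and 3287.5 in endothelial-like cells.

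Over the whole set, a gene was compared where its mean over both libraries was at least 50 CPM and called where the ratio of (CPM + 1) was 2-fold or more. In heart infarct fibroblast-like cells 8 of the 10 members could be compared, and 6 were higher and 0 lower than in sham (*Fn1*, *Postn*, *Cilp*, *Thbs4*, *Sparc* and *Thbs2*), where 6.73% of 2944 genes were called higher and 5.33% lower. Their median log2 ratio was 2.42, against 0.03 over all genes compared. In heart peri-infarct 5 of 8 were higher and 0 lower (background 3.02% and 2.69%), with a median of 1.76 against 0.11. *Tnc* and *Spp1* did not reach the level filter. Members that reach it through the injured library alone tend to count as higher. The members were also chosen with earlier results of these data known. These counts and those below are therefore given as a description, and the background shares beside them carry no test.

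Brain fibroblast-like cells gave a mixed set. In infarct 3 of 6 members were higher (*Spp1*, *Fn1* and *Sparc*) and 2 lower (*Thbs1* and *Postn*), in a comparison where 18.2% of 3316 genes were higher and 26.6% lower. In peri-infarct 2 of 6 were higher (*Spp1* and *Fn1*) and 1 lower (*Postn*), against 6.47% and 9.15% of 3475 genes. The medians were 0.87 and 0.68, against -0.08 and -0.11 over all genes. The infarct and the peri-infarct comparison of an organ share the sham library, so they are not independent of each other.

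In heart mural-like cells 3 of 4 members were higher in infarct (*Postn*, *Fn1* and *Sparc*) and 0 lower, against a background of 7.87% and 6.84%. In heart peri-infarct 3 of 4 were higher (background 5.89%) and 1, *Thbs1*, was lower (4.97%). Smooth-muscle-like cells made up 369 of 1016 mural-like cells in heart peri-infarct and 1796 of 2330 in sham, and with pericyte-like cells alone the *Thbs1* log2 ratio was 0.80 in place of -1.02. In brain mural-like cells 1 of 2 members, *Fn1*, was higher and 0 lower in infarct (background 3.0% and 2.89%), and 0 of 2 were either in peri-infarct (0.259% and 0.493%). Heart mesothelial-like cells had 2 of 4 higher in infarct (*Fn1* and *Sparc*, background 10.8%) and 1 lower (*Thbs2*, 15.9%). In heart peri-infarct the same class had 2 higher (*Fn1* and *Sparc*, 8.52%) and 2 lower (*Thbs1* and *Thbs2*, 13.3%). In endothelial-like cells of heart 1 of 2, *Sparc*, was higher and 0 lower in infarct (background 4.86% and 6.62%), and likewise in peri-infarct (5.63% and 7.04%).

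Infarct set directly against peri-infarct does not use the sham libraries. Heart fibroblast-like cells had 2 of 9 members at least 2-fold higher in infarct than in peri-infarct, *Fn1* at 3.49-fold (3.46 to 3.54) and *Thbs2* at 2.12-fold, and 0 lower, where 1.36% of 3011 genes were called higher and 1.26% lower. The others stood between 1.07-fold (*Thbs1*) and 1.80-fold (*Thbs4*). Brain fibroblast-like cells had 3 of 6 higher, *Spp1* at 38.4-fold (34.5 to 43.2), *Fn1* at 4.05-fold and *Sparc* at 2.003-fold (background 10.6%), and 1 lower, *Thbs1* at 0.168-fold (background 15.5%). In macrophage-like cells of heart *Sparc* alone of 4 members was 2-fold higher in infarct (206 CPM, against 99.4 in peri-infarct, background 0.441%), and 0 members were lower (background 1.47%). Its infarct level was 1.64% of that in fibroblast-like cells, whose check markers stood at 1.23% there. Carry-over of *Sparc* transcripts was not tested.

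**Figure D3:**
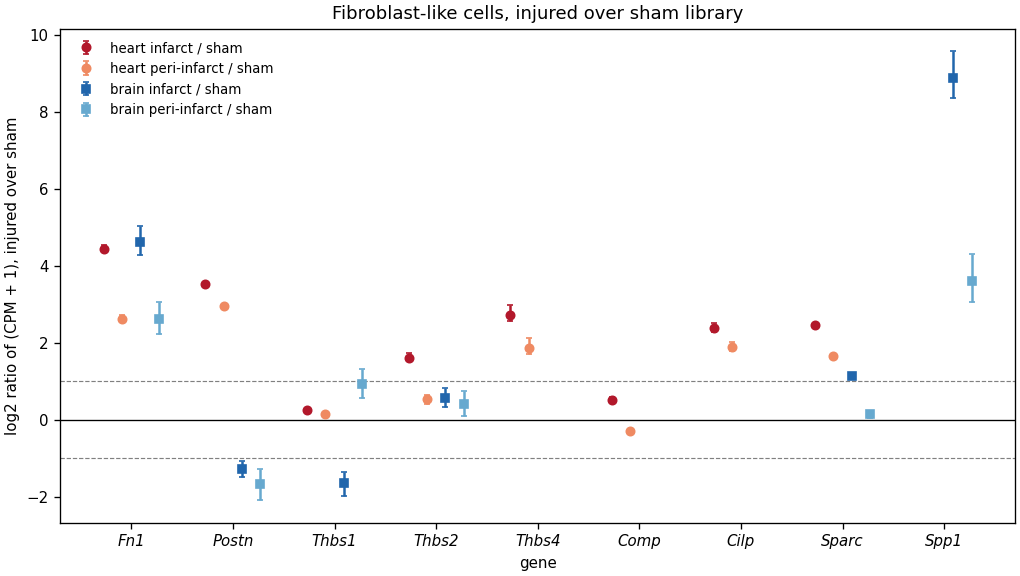
Log2 ratio of (CPM + 1) in fibroblast-like cells, injured over sham library (y axis), for each gene that reached the level filter, with bars for the 95% counting interval, circles for heart and squares for brain, and dashed lines at 2-fold. *Fn1* lies near 4.5 in both infarcts and 2.6 in both peri-infarct areas, *Postn* lies above 0 in heart and below 0 in brain, and *Spp1* reaches 8.87 in brain infarct.

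Within heart infarct fibroblast-like cells the members differed in how evenly cells carried them. The 10% of cells richest in a gene held 20.1% of *Sparc*, 29.6% of *Fn1*, 30.9% of *Postn* and 34.5% of *Thbs2* UMIs. They held 48.3% of *Thbs1*, 56.6% of *Comp*, 57.5% of *Cilp*, 76.0% of *Tnc*, 95.1% of *Thbs4* and all of *Spp1*. In heart peri-infarct the richest 10% held 33.3% of *Sparc*, 63.8% of *Fn1* and 51.5% of *Postn*. They held 82.0% of *Cilp*, 91.5% of *Comp* and all of *Thbs4*. Each of these shares was larger than in infarct, while each gene's level was lower. The cells richest in *Fn1* held 15.9% of all UMIs of the class in peri-infarct and 11.8% in infarct. The part of level and depth in these shares was not tested. In brain infarct fibroblast-like cells 64.7% of *Spp1* UMIs, but 22.1% of *Fn1*, lay in the richest 10% of cells. In brain peri-infarct the richest 10% held 81.8% of *Fn1*, 78.6% of *Thbs1*, 61.6% of *Spp1*, 54.9% of *Sparc* and 26.9% of *Thbs2*, and the median cell had no *Fn1*, *Thbs1* or *Spp1* UMI.

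After thinning to 1000 UMIs, 72.7% of heart infarct and 24.5% of peri-infarct fibroblast-like cells had an *Fn1* UMI, against 9.33% in sham (95.7%, 60.9% and 15.3% unthinned). For *Postn* the thinned shares were 75.3% and 45.3%, against 17.6% in sham. In endothelial-like cells they were 5.36% and 1.58%, against 5.64% in sham, and the part of free RNA in these shares was not tested. The median depths behind them were 11706, 9840 and 1510 UMIs in fibroblast-like and 4951, 6432.5 and 1699 in endothelial-like cells, and 940 of the 4821 sham fibroblast-like cells were too shallow to be thinned.

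Across 4806 heart infarct fibroblast-like cells of at least 5000 UMIs, *Postn* went with *Cilp* (Spearman's rho 0.56), *Thbs4* with *Cilp* (0.43) and *Fn1* with *Sparc* (0.35), while *Fn1* and *Postn* were weakly related (0.14). Across 3983 heart peri-infarct cells *Fn1* went with *Sparc* (0.62) and *Postn* with *Sparc* (0.57), *Cilp* (0.52) and *Fn1* (0.45). These cells share a library and differ in depth, and the coefficients are descriptions.

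Among 26 other matricellular and matrix glycoproteins, heart infarct fibroblast-like cells had 21 that could be compared, of which 4 were higher and 5 lower, with a median log2 ratio of 0.13 (background 6.73% higher and 5.33% lower). *Ltbp2*, a microfibril-associated protein, had 469.6 CPM in heart infarct and 186 in peri-infarct, against 44.0 in sham. *Efemp2*, the fibulin-4 gene needed for elastic fibres, had 201 and 137 CPM, against 63.4. *Sparcl1*, a relative of *Sparc*, was lower, with 186 CPM in infarct and 326 in peri-infarct, against 651 in sham. In heart peri-infarct 2 of 21 were higher and 0 lower (background 3.02% and 2.69%).

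In brain fibroblast-like cells 6 of 14 other glycoproteins were higher and 4 lower in infarct (background 18.2% and 26.6%, so the number lower is near that of any genes). In peri-infarct 7 of 15 were higher and 1 lower (background 6.47% and 9.15%). *Mgp*, matrix Gla protein, an inhibitor of calcification, had 3882 CPM in brain infarct and 3231 in peri-infarct, against 433 in sham. *Tgfbi*, an integrin-binding relative of periostin, had 261 CPM in brain infarct against 26.6 in sham, so that it and *Postn* differed from sham in opposite directions there. *Sparcl1* was lower in brain too, with 446 CPM in infarct and 897 in peri-infarct, against 1777 in sham, as was *Vwa1* with 16.6 CPM in infarct, against 459 in sham.

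Of 15 receptors for fibronectin and matricellular proteins, 7 could be compared in each fibroblast-like comparison with sham. In heart infarct 1 was higher and 0 lower (background 6.73% and 5.33%), namely *Itgb5*, an integrin chain that pairs with alpha-v, with 529.98 CPM, against 183 in sham. In heart peri-infarct none passed 2-fold in either direction, *Itgb5* standing at 317 CPM (background 3.02% and 2.69%). In brain infarct 0 were higher and 2 lower, *Lrp1*, an endocytic receptor of thrombospondins (345 CPM, against 1169 in sham), and *Ddr2*, a collagen receptor (41.0, against 109.5 in sham). With 18.2% of all genes higher and 26.6% lower in that comparison, these receptor counts are near the background. In brain peri-infarct 0 of 7 passed 2-fold (background 6.47% and 9.15%).

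The genes whose log2(CPM + 1) was most like each member's were ranked by Pearson correlation over 32 profiles, 1 for each class and library with at least 50 cells, among 7363 genes. The leading ones were *Tubb5* (0.84) for *Fn1*, *Srpx2* (0.89) for *Postn*, *Thy1* (0.80) for *Tnc*, *Fgl2* (0.91) for *Thbs1* and *Col16a1* (0.95) for *Thbs2*. For the others they were *Scx* (0.84) for *Thbs4*, *Ptx3* (0.86) for *Comp*, *C1qtnf3* (0.87) for *Cilp*, *Serpinh1* (0.91) for *Sparc* and *Fam105a* (0.82) for *Spp1*. Between members the closest pairs were *Comp* and *Cilp* at 0.86 and *Thbs4* and *Cilp* at 0.77, while *Fn1* and *Postn* stood at 0.28. Profiles of 1 library share its depth and free RNA, so these values describe the libraries and carry no test.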

How the data were processed

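Raw UMI counts of each gene in each barcode were deposited for all 6 libraries. Cell Ranger 3.0.2, mm10 and, for later steps, Seurat 3 are named in the submitters' processing notes. Cells with at least 500 genes and at most 10% mitochondrial UMIs were kept (scanpy 1.11.5, scipy 1.17.1, numpy 2.4.6, Python 3.11.15). Doublets were scored with Scrublet. Because the automatic threshold found 0 doublets in heart sham and heart infarct, the highest-scoring cells of each library were removed up to the rate its barcode number predicts (0.8% per 1000 barcodes), 2578 in heart sham and 45 to 734 elsewhere.

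A cell entered a class when at least 2 of the class's markers were seen, its score was at least 0.25 and 2 times the next. Cells below the score reached no class, and cells without that margin lay between classes. The scoring rule was set after values were seen. The members and the gene lists were chosen with earlier results of these data known. Counts were summed over a class and scaled to 1000000 (CPM). A main source is the gated class with the largest share of a gene's UMIs, with exact Clopper-Pearson 95% intervals, and level ratios of (CPM + 1) carry exact Poisson intervals. With 1 library per group no test was possible, and cells were not used as replicates. A gene was compared at a mean of at least 50 CPM, in classes of at least 50 cells per library, and called at 2-fold. Of the other lists, the 3 genes with the highest and the 3 with the lowest ratio could be named.

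The libraries held 107892408 (heart infarct), 95248788 (heart peri-infarct), 32194158 (heart sham), 54810989 (brain infarct), 11796570 (brain peri-infarct) and 12311632 (brain sham) UMIs. Positions come from GENCODE M21. *Fn1* and *Thbs1* overlap *Apol7d* and *Gm29233* on the other strand, and whether counting used strand is not given in the sources used here. Scripts were tested on simulated data. Alternatives covered the cell filters, doublets, the gate, Leiden clusters (igraph 0.11.9), mean over cells, TMM factors (edgeR 4.0.16, R 4.3.3), thinning, the CPM filter, the pseudocount and subtraction of free RNA, and 2 (a gate score of 0.1, and more than 3 UMIs in a source class) were added after the data were seen.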

Additional observations from a re-analysis of the deposited data

Results flagged for a closer look

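*Postn* in fibroblast-like cells differed from sham in opposite directions in the 2 organs. The log2 ratio was 3.53 in heart infarct and 2.95 in peri-infarct, and -1.27 in brain infarct and -1.66 in peri-infarct. Both ratios of an organ use the same sham library, and the difference between the organs was not tested, since each group is 1 library.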

How the results depend on the processing

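Of 40 ratios of members to sham, 32 kept their sign under every one of the 19 alternatives that applied to them, and of 27 at 2-fold or more 25 did. The exceptions were *Fn1* in brain peri-infarct fibroblast-like cells, -1.83 with Leiden clusters (reported 2.61), and *Thbs1* in heart peri-infarct mural-like cells, 0.80 with pericyte-like cells alone (reported -1.02). Of the 13 ratios within 2-fold, 6 changed sign, namely in fibroblast-like cells *Comp* in heart infarct (-0.14 with clusters), *Thbs2* in brain infarct (-0.27 with clusters), *Thbs1* in brain peri-infarct (down to -0.90) and *Sparc* in brain peri-infarct (down to -0.29), and in mural-like cells *Thbs1* in heart infarct (up to 1.79) and *Fn1* in brain peri-infarct (down to -0.83). Counts of members at least 2-fold higher that moved by over 1.5 times were those of brain peri-infarct fibroblast-like cells (1 with clusters, reported 2), brain infarct mural-like cells (3 with clusters, 2 with the mean over cells, 4 without the CPM filter, reported 1), brain peri-infarct mural-like cells (1 without the filter, reported 0) and heart peri-infarct mural-like cells (1 with only the smooth-muscle-like ones, reported 3). Members led by fibroblast-like cells in brain peri-infarct were 4 with clusters and 5 with a gate score of 0.1 (reported 2). The cause of these moves was not tested. The other 167 values of this kind stayed within 1.5 times.

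TMM scaling moved all log2 ratios of a comparison by 0.67 in brain infarct, 0.20 in brain peri-infarct and 0.12 in heart infarct fibroblast-like cells, and by -0.14 in heart peri-infarct mural-like cells. *Postn* in fibroblast-like cells ranged from -1.71 to -0.48 in brain infarct and from -2.04 to -0.81 in brain peri-infarct. Smooth-muscle-like cells of brain infarct alone could not be compared (1 cell). Heart sham, with a median of 1376 UMIs per cell, limits low members there. No paired analysis was possible because each group holds 1 library.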
